A study of Drosophila melanogaster with 12 samples.

Results

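The genes described here are 36 immune genes of the fruit fly Drosophila melanogaster, measured by RNA sequencing of whole heads: 13 antimicrobial peptide genes, 9 peptidoglycan recognition protein genes, 4 thioester protein genes, 3 genes of the Imd pathway and 7 genes of the Toll pathway. They were taken by symbol from the 24228 features of the deposited count table, without the Bomanins and Daishos, and each of the 36 was found once. All 36 were among the 10238 features that passed the filter on low counts.

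The flies were of the wild-type laboratory strain ORE-R and carried no transgene named in the labels. Adults spent 3 to 5 days with both sexes present and then 7 days either in same-sex groups of 25 or singly, which gave group-housed females, isolated females, group-housed males and isolated males, with 3 libraries each. A library held polyadenylated RNA of 200 pooled heads, so it averages over many animals and over brain, eye, muscle, fat body and blood cells. Replicate 0 of every group belonged to sequencing batch 1 and replicates 1 and 2 to batch 2, and values below are given in the order of replicates 0, 1 and 2. The question of the series was what social isolation does to head expression in either sex.

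Insect humoral immunity rests on a pair of NF-kappaB pathways. Peptidoglycan of Gram-negative type is sensed by receptors such as PGRP-LC and PGRP-LE, which signal through the adaptor Imd to the transcription factor Relish, while sensors of other bacteria and fungi start a protease cascade that cleaves Spätzle, the ligand of the receptor Toll, and frees the factors Dorsal and Dif. Both pathways switch on secreted antimicrobial peptides, made mostly by the fat body and by blood cells (hemocytes), and both are held in check by inhibitors that are themselves part of these gene lists.

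The libraries held 2584050 to 17122099 counts, and isolated female replicates 1 and 2 were the shallowest. Levels are CPM, read counts relative to the library size after TMM scaling. A log2 fold change and its standard error (SE) come from 1 edgeR quasi-likelihood model of all 12 libraries with a batch term, and p-values were adjusted over all 10238 features, with 0.05 as the threshold. Photoreceptor markers took 14610 to 21280 CPM in group-housed females and 13840 to 19300 CPM in group-housed males, and no marker of photoreceptors or neurons was at 0 in all libraries. Every comparison shares libraries with others: the group-housed females serve both the test of isolation in females and that of sex, for example, so that these are not independent of each other. In bulk RNA, fewer cells of a type and less RNA per cell cannot be told apart, which applies to each difference below.

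Under group housing 12 of 36 were higher in females and 0 lower, where 1.49% of all features tested were higher in females and 1.23% lower. Under isolation 10 of 36 were higher in females and 0 lower, against 3.6% higher and 0.635% lower over all features. Isolation itself raised 4 of 36 in females and lowered 0, against 3.26% and 0.215% of all features. In males isolation raised 0 and lowered 0 of the 36 (0.0195% and 0.0586% of all features), although 12, or 33.3%, had an unadjusted p under 0.05 against 2.66% of all features. No member passed the test of a difference between the sexes in the response, where 0.43% of all features passed with the greater value in females and 0.00977% with the lesser, and 14 of the 36, or 38.9%, had an unadjusted p under 0.05 against 7.1% of all features. In all, 19 of the 36 passed in at least 1 comparison in edgeR and 17 in none. Of these 17, DESeq2 called 7 in at least 1 comparison (AttD, Dro, Mtk, PGRP-SC2, Tep4, Tl and nec) and limma-voom 4 (Dro, Mtk, PGRP-SC2 and nec). Below, passing refers to edgeR unless another tool is named.

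Among the antimicrobial peptides, the effectors of both pathways, every one of the 13 had a positive female minus male difference under group housing, and 8 passed: the attacins AttA, AttB and AttC, the cecropins CecA1, CecA2 and CecC, and the diptericins DptA and DptB. The median of all 13 was 2.52 on the log2 scale, against -0.01 over all features. The other 5, AttD, Def, Dro, Drs and Mtk, had positive values that did not pass in edgeR. Of these, DESeq2 called Mtk (adjusted p = 0.00156) and Dro (adjusted p = 0.00994), and limma-voom called Mtk (adjusted p = 0.0134). Together the 13 took 599 to 672 CPM in group-housed females and 83.2 to 196 CPM in group-housed males.

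Attacins are glycine-rich peptides directed at Gram-negative bacteria. AttC was at 284, 288 and 218 CPM in group-housed females, 332, 410.3 and 386 in isolated females, 39.5, 77.2 and 30.9 in group-housed males and 80.7, 169.7 and 174 in isolated males. Every female library stood above every male one in either housing, and each isolated male library stood above each group-housed one. The difference between the sexes in groups was 2.47 (SE 0.31, adjusted p = 0.000525), a 5.53-fold higher level in females. AttA was at 57.8, 64.5 and 80.8 CPM in group-housed females, 65.01, 83.8 and 91.4 in isolated females, 10.3, 24.5 and 12.7 in group-housed males and 16.1, 36.6 and 45.7 in isolated males, and AttB at 51.8, 38.9 and 61.97 CPM in group-housed females, 46.5, 38.7 and 45.5 in isolated females, 4.81, 14.1 and 8.49 in group-housed males and 10.4, 27.4 and 20.7 in isolated males. Both also separated the sexes without overlap, with differences in groups of 2.17 (SE 0.24, adjusted p = 6.48e-05) for AttA and 2.60 (SE 0.33, adjusted p = 0.000406) for AttB. AttD, an attacin that lacks a signal peptide, was low and scattered, at 2.41 to 10.5 CPM in group-housed females and 0.254 to 5.49 CPM in group-housed males, and its difference of 1.94 (SE 0.90, adjusted p = 0.395) did not pass.

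**Figure D1:**
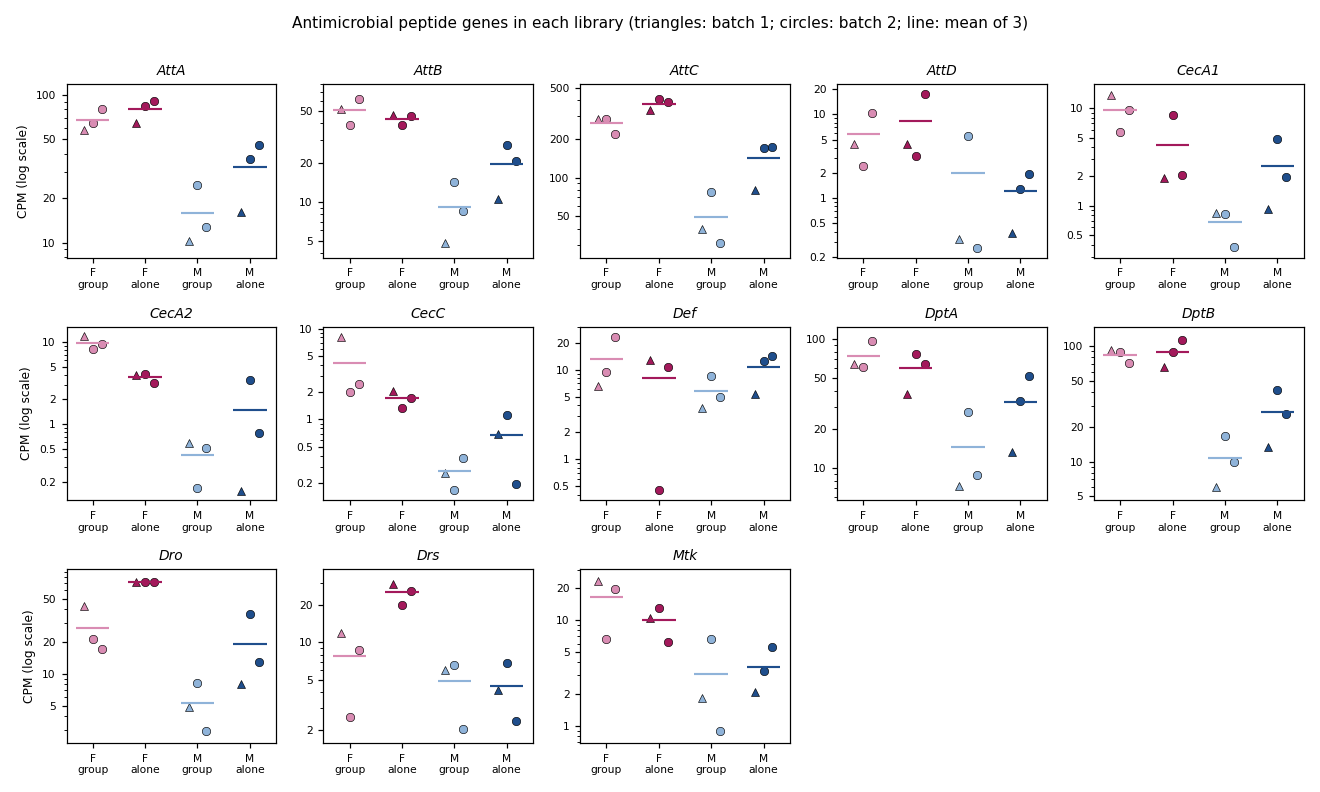
CPM on a log axis of the 13 antimicrobial peptide genes in each of the 12 libraries, for females (F) and males (M) in groups or alone, with batch 1 as triangles, batch 2 as circles and a line at the mean of 3 libraries. AttC spans 218 to 288 CPM in group-housed females and 30.9 to 77.2 CPM in group-housed males, and the cecropins lie lower in isolated than in group-housed females by their means.

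Diptericins, another group of glycine-rich peptides and a classic readout of the Imd pathway, were also higher in group-housed females. DptB was at 91.7, 89.3 and 71.3 CPM in group-housed females, 66.4, 88.3 and 113 in isolated females, 5.98, 16.6 and 9.89 in group-housed males and 13.5, 41.8 and 25.98 in isolated males. DptA was at 64.6, 60.98 and 96.3 CPM in group-housed females, 37.6, 77.5 and 63.95 in isolated females, 7.28, 27.3 and 8.87 in group-housed males and 13.2, 33.2 and 51.96 in isolated males. In groups no male library reached the lowest female one for either gene, and the differences were 3.11 (SE 0.33, adjusted p = 0.000121) for DptB and 2.52 (SE 0.40, adjusted p = 0.00479) for DptA. Within batches the difference of DptB, taken as that of log2(CPM + 0.5), was 3.83 in batch 1 and 2.59 in batch 2.

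Cecropins, short helical peptides that lyse bacterial membranes, had the largest differences between group-housed females and males of the 36 members, on few reads. CecA1 was at 13.6, 5.67 and 9.71 CPM in group-housed females, 1.94, 8.56 and 2.08 in isolated females, 0.845, 0.832 and 0.38 in group-housed males and 0.918, 4.79 and 1.97 in isolated males. CecA2 was at 11.7, 8.08 and 9.5 CPM in group-housed females, 3.996, 4.05 and 3.13 in isolated females, 0.585, 0.166 and 0.507 in group-housed males and 0.153, 3.48 and 0.787 in isolated males, and CecC at 8.08, 1.99 and 2.48 CPM in group-housed females, 2.05, 1.35 and 1.74 in isolated females, 0.26, 0.166 and 0.38 in group-housed males and 0.688, 1.12 and 0.197 in isolated males. Group-housed males were near the limit of detection, with 13, 5 and 3 reads of CecA1, 9, 1 and 4 of CecA2 and 4, 1 and 3 of CecC, so the size of these differences is uncertain even where their direction held in every pair of libraries. The log2 differences were 3.79 (SE 0.71, adjusted p = 0.00553) for CecA1, 4.38 (SE 0.78, adjusted p = 0.00399) for CecA2 and 3.83 (SE 0.73, adjusted p = 0.00611) for CecC. Leaving out group-housed female replicate 0 ended the calls of CecA1 (adjusted p = 0.0826) and CecC (adjusted p = 0.0991).

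The remaining peptides have partly different regulation. Drs encodes drosomycin, an antifungal peptide used as a readout of Toll. It was at 11.9, 2.55 and 8.68 CPM in group-housed females, 29.6, 19.8 and 26.1 in isolated females, 5.98, 6.66 and 2.03 in group-housed males and 4.13, 6.84 and 2.36 in isolated males. In groups the sexes overlapped, with a difference of 0.65 (SE 0.50, adjusted p = 0.675), whereas under isolation all female libraries were above all male ones, with 2.41 (SE 0.50, adjusted p = 0.0115). Dro, which encodes the proline-rich peptide drosocin, was at 42.6, 20.99 and 16.9 CPM in group-housed females, 71.3, 72.5 and 71.6 in isolated females, 4.94, 8.15 and 2.92 in group-housed males and 7.95, 36.5 and 12.8 in isolated males. Each female library was above each male one within either housing, but the differences of 2.41 (SE 0.63, adjusted p = 0.101) in groups and 1.88 (SE 0.58, adjusted p = 0.122) alone did not pass in edgeR. DESeq2 called Dro in groups, as given above, and alone (adjusted p = 0.0445), and limma-voom called it alone (adjusted p = 0.045). Mtk, encoding the proline-rich antifungal peptide metchnikowin, had 2.52 (SE 0.65, adjusted p = 0.0608) in groups, and Def, encoding defensin against Gram-positive bacteria, had 1.14 (SE 0.65, adjusted p = 0.537). Def rested on 1 read in isolated female replicate 1, at 0.45 to 12.96 CPM over the isolated females.

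Under isolation 12 of 13 antimicrobial peptides had a positive female minus male difference, with a median of 1.39 against -0.02 over all features, and 5 passed. These were AttA with 1.39 (SE 0.24, adjusted p = 0.00263), AttB with 1.26 (SE 0.32, adjusted p = 0.038), AttC with 1.46 (SE 0.30, adjusted p = 0.0131), DptB with 1.76 (SE 0.31, adjusted p = 0.00498), and Drs. With the replicate number as a block AttB did not pass (adjusted p = 0.0562). DESeq2 also called AttD with 2.96 (adjusted p = 0.0106), while edgeR had 2.95 (SE 0.93, adjusted p = 0.103). AttD was higher in every isolated female library than in every isolated male one, but scattered. It was at 11.4 ± 10.9 CPM per kilobase of exon in isolated females and 1.64 ± 1.07 in isolated males (SD, n = 3). The cecropins and DptA, which passed in groups, had 0.57 (SE 0.67, adjusted p = 0.726) for CecA1, 1.32 (SE 0.73, adjusted p = 0.393) for CecA2, 1.14 (SE 0.69, adjusted p = 0.445) for CecC and 0.97 (SE 0.38, adjusted p = 0.227) for DptA. Together the 13 took 685 to 839.6 CPM in isolated females and 156 to 378 CPM in isolated males.

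**Figure D2:**
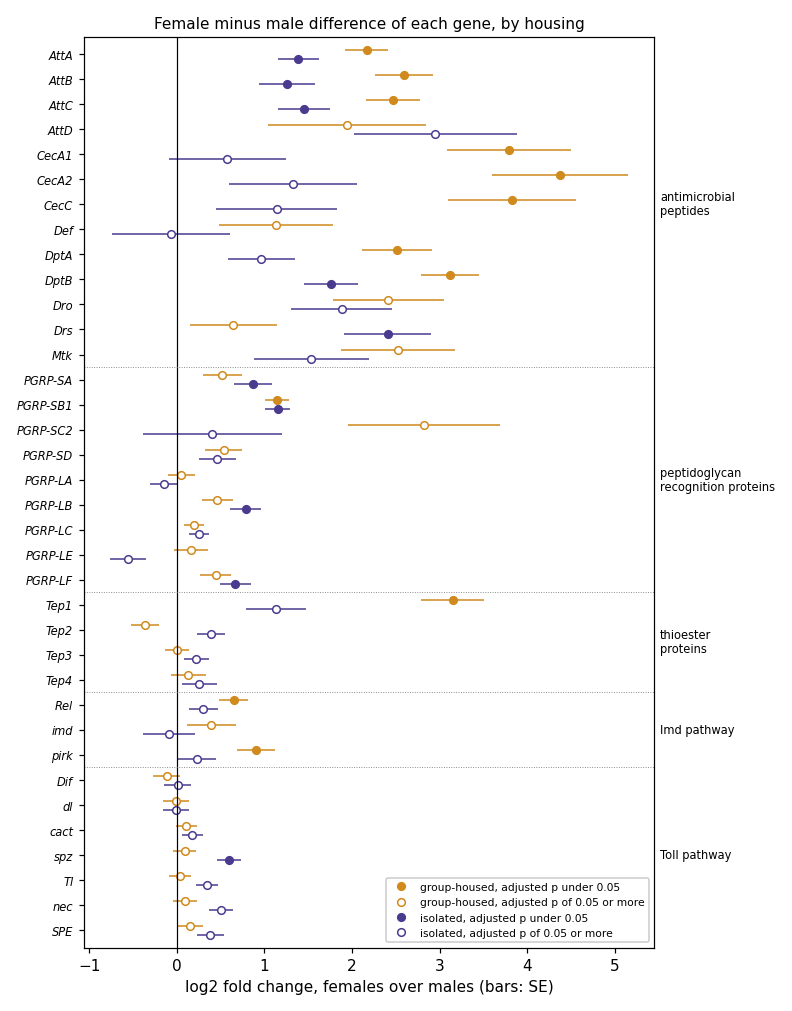
Log2 fold change of females over males with its SE for each of the 36 genes, in groups (orange) and alone (purple), filled where the adjusted p was under 0.05. All antimicrobial peptides lie to the right of 0 in groups, up to 4.38 for CecA2, and 6 of the 7 Toll pathway genes are unfilled in both housings.

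For isolation in females, 0 of 13 passed, the median was -0.20 (-0.02 over all features), and 6 of 13 values were positive. Drs, with 1.74 (SE 0.49, adjusted p = 0.0718), and Dro, with 1.37 (SE 0.56, adjusted p = 0.303), were higher in each isolated library than in each group-housed one without passing the test. DESeq2 and limma-voom both put Drs past the threshold, with adjusted p = 0.0101 and adjusted p = 0.00763. AttC, at 0.49 (SE 0.29, adjusted p = 0.492), also separated without passing. The cecropins had negative values that did not pass, -1.43 (SE 0.66, adjusted p = 0.336) for CecA1, -1.38 (SE 0.67, adjusted p = 0.36) for CecA2 and -1.20 (SE 0.64, adjusted p = 0.418) for CecC.

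In males 11 of 13 peptides had a positive isolation value, with a median of 1.15 against -0.00 over all features, and 0 passed in edgeR. An unadjusted p under 0.05 was found for 7 of the 13 and for 2.66% of all features. AttC had the smallest p, with 1.50 (SE 0.30, adjusted p = 0.185) and a 95% interval of 0.85 to 2.15. AttA had 1.02 (SE 0.24, adjusted p = 0.319), DptB 1.35 (SE 0.33, adjusted p = 0.414), AttB 1.14 (SE 0.33, adjusted p = 0.799) and Dro 1.90 (SE 0.63, adjusted p = 1). For AttA, AttB, DptA, DptB and Dro, 8 of 9 pairs of male libraries had the isolated one higher, and the exception was group-housed replicate 1 against isolated replicate 0. DESeq2 called AttA, AttC and DptB in males, with adjusted p = 0.0407, 0.000183 and 0.0138, and limma-voom called 0 members. The value of CecA2 in males turned from 1.67 to -0.28 without isolated male replicate 1.

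The test of a difference between the sexes in the isolation response had a negative value, the lesser in females, for 11 of 13 peptides, and 9 of 13 had an unadjusted p under 0.05. Over all features 7.1% had such a p and 49.4% of values were positive. The smallest adjusted p was that of CecA1, -3.22 (SE 0.95, adjusted p = 0.256), and DptB had -1.35 (SE 0.44, adjusted p = 0.366). Drs had the opposite sign, 1.76 (SE 0.69, adjusted p = 0.57). None of these passed. Averaged over the sexes, where 2.08% of all features were higher and 0.117% lower under isolation, 4 of the 36 members were higher and 0 lower, and the one peptide among them was AttC at 0.99 (SE 0.21, adjusted p = 0.0247). Its call was lost in 8 of 12 fits that left out 1 library each (highest adjusted p = 0.103 without group-housed female replicate 2). For the average over the sexes DESeq2 also called AttA (adjusted p = 0.0221) and Dro (adjusted p = 0.0142), and limma-voom also called AttA (adjusted p = 0.0341).

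Peptidoglycan recognition proteins detect or degrade bacterial cell wall, and the short, secreted forms gave the calls of isolation in this class. Of 9 genes, 2 were higher in isolated females, PGRP-SB1 and PGRP-SD, and 0 lower. The class median was 0.46 in females and 0.24 in males, with 6 and 9 of 9 values positive.

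PGRP-SB1, a secreted amidase that cleaves peptidoglycan, lies on chromosome arm 3L from 16727299 to 16727989 in the BDGP6.54 annotation. It was at 126, 169.9 and 157 CPM in group-housed females, 190.4, 274 and 246 in isolated females, 52.1, 88.2 and 67.1 in group-housed males and 90.4, 99.6 and 129 in isolated males. Every isolated library was above every group-housed one within each sex. The isolation value was 0.64 (SE 0.14, adjusted p = 0.0146) in females and 0.64 (SE 0.14, adjusted p = 0.194) in males, and averaged over the sexes it was 0.64 (SE 0.10, adjusted p = 0.0016). DESeq2 called it in males as well (adjusted p = 0.0099). The difference between those responses was 0.01, with a 95% interval of -0.42 to 0.43. Females also exceeded males without overlap, by 1.14 (SE 0.14, adjusted p = 0.000147) in groups and 1.15 (SE 0.14, adjusted p = 0.000106) alone. The call in females was lost in 3 of 12 fits that left out 1 library each (highest adjusted p = 0.0963 without isolated female replicate 1), and the averaged call in 0 of 12.

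PGRP-SD, a secreted protein that binds peptidoglycan and assists recognition, was at 40, 40.7 and 46.5 CPM in group-housed females, 95.7, 57.6 and 72.6 in isolated females, 22.6, 34.8 and 31.6 in group-housed males and 40.8, 64.5 and 65.7 in isolated males. Isolated libraries exceeded group-housed ones in each of the 9 pairs in either sex. The values were 0.88 (SE 0.21, adjusted p = 0.0303) in females, 0.95 (SE 0.21, adjusted p = 0.204) in males and 0.91 (SE 0.15, adjusted p = 0.00278) averaged, and the difference of the responses was -0.07 with a 95% interval of -0.70 to 0.56. DESeq2 called PGRP-SD in males as well (adjusted p = 0.0248). In females the within-batch values were 1.25 in batch 1 and 0.57 in batch 2, and without isolated female replicate 0 the adjusted p was 0.273. PGRP-SD shares exon sequence with CG7492 on the other strand in BDGP6.54, and how strand was used in the counting is not known. CG7492 itself was at 75.2 to 115 CPM with an isolation value in females of -0.26 (adjusted p = 0.419).

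PGRP-SA, PGRP-LB and PGRP-LF passed when isolated females were compared with isolated males and in no other comparison in edgeR, and none passed the test of a difference in response. PGRP-SA, the circulating receptor for Gram-positive bacteria upstream of Toll, was at 13.2, 17.9 and 14.1 CPM in group-housed females, 22.6, 27.9 and 21.2 in isolated females, 8.78, 11.5 and 11.4 in group-housed males and 10.2, 16.9 and 12.4 in isolated males. PGRP-LB, an amidase that dampens Imd signalling, was at 29.04, 20.4 and 22.5 CPM in group-housed females, 35.2, 36.9 and 31.97 in isolated females, 19.2, 15.5 and 17.4 in group-housed males and 19.8, 21.3 and 18.7 in isolated males. PGRP-LF, a membrane protein that inhibits the same pathway, was at 28.9, 28.2 and 28.5 CPM in group-housed females, 44.5, 33.8 and 37.9 in isolated females, 18.7, 25.5 and 19.1 in group-housed males and 23.8, 22.9 and 27.8 in isolated males. Isolated females were above isolated males in every pair of libraries for each of these genes. The differences were 0.87 (SE 0.22, adjusted p = 0.0337) for PGRP-SA, 0.79 (SE 0.18, adjusted p = 0.0164) for PGRP-LB and 0.67 (SE 0.18, adjusted p = 0.0448) for PGRP-LF. For isolation in females the same genes had 0.68 (SE 0.22, adjusted p = 0.127), 0.53 (SE 0.18, adjusted p = 0.14) and 0.46 (SE 0.18, adjusted p = 0.233), which did not pass in edgeR, while limma-voom called PGRP-SA (adjusted p = 0.048). PGRP-LF overlaps UGP on the other strand, which was far higher at 242 to 464 CPM. UGP had 0.45 (adjusted p = 0.214) for isolation in females and 0.45 (adjusted p = 0.176) between isolated females and males.

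The remaining recognition genes passed for isolation in neither sex. PGRP-LC, the main membrane receptor of the Imd pathway, ranged from 84.4 to 125 CPM over the 12 libraries, with isolation values of 0.28 (SE 0.12, adjusted p = 0.27) in females and 0.22 (SE 0.11, adjusted p = 1) in males. PGRP-LE, which senses peptidoglycan inside cells, had the one negative value of the class with an unadjusted p under 0.05 in females, -0.67 (SE 0.21, adjusted p = 0.11), at 20.2, 15.9 and 19.6 CPM in groups and 14.7, 9.01 and 10.8 CPM alone. It did not pass, and it is not called lower here. PGRP-LA, related to the receptors by sequence and adjacent to PGRP-LC and PGRP-LF on chromosome arm 3L, ranged from 30.6 to 40.6 CPM. PGRP-SC2, an amidase known from the gut, was close to the floor, at 0 to 4.48 CPM. Its 0 reads in group-housed male replicate 2 allow up to 0.38 CPM, the value of 3 counts. Its female minus male difference in groups, 2.82 (SE 0.86, adjusted p = 0.114), passed in DESeq2 (adjusted p = 0.0421) and limma-voom (adjusted p = 0.0199).

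**Figure D3:**
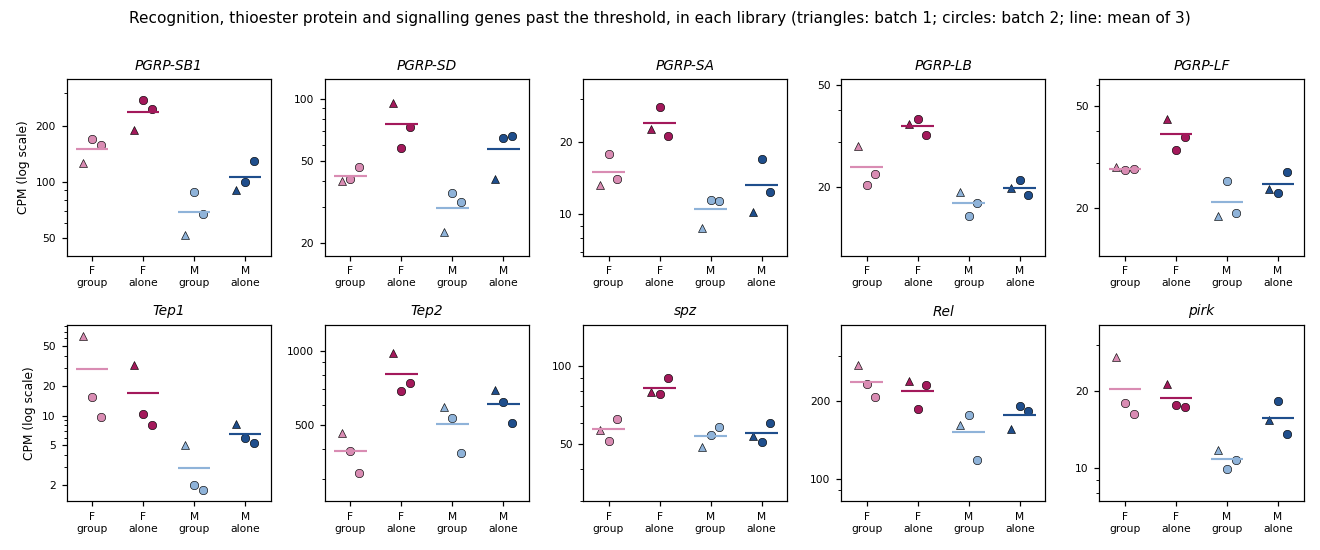
CPM on a log axis in each library of the 10 recognition, thioester protein and signalling genes that passed in at least 1 comparison, drawn as for the peptides. Isolated libraries lie above group-housed ones within each sex for PGRP-SB1 and PGRP-SD, while PGRP-SA, PGRP-LB, PGRP-LF, Tep2 and spz separate by housing in females alone. Tep2 in females is at 318 to 464 CPM in groups and 687 to 983 CPM alone.

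Thioester proteins are secreted relatives of vertebrate complement factors. Tep2 was the member with the smallest p for isolation in females, on chromosome arm 2L from 7693727 to 7701601 in BDGP6.54. It was at 464, 391 and 318 CPM in group-housed females, 983, 687 and 739 in isolated females, 593, 534 and 384 in group-housed males and 693, 620.1 and 511 in isolated males. All 3 isolated female libraries were above the group-housed ones, whereas the male groups overlapped. The isolation value was 1.03 (SE 0.16, adjusted p = 0.00114) in females, a 2.05-fold higher level, and 0.28 (SE 0.16, adjusted p = 1) in males. The difference of 0.76 (SE 0.23, adjusted p = 0.265) between the sexes did not pass in edgeR, and DESeq2 gave adjusted p = 0.0315. The call in females held in each of 12 fits that left out 1 library. It did not pass in the smaller fits, of batch 2 alone or without isolated female replicates 1 and 2.

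Tep1 was higher in group-housed females, and its level differed between the batches. It was at 63.5, 15.5 and 9.71 CPM in group-housed females, 32.3, 10.4 and 7.99 in isolated females, 5.07, 1.997 and 1.77 in group-housed males and 8.18, 5.9 and 5.31 in isolated males. Batch 1 libraries were the highest in all 4 groups. In groups the difference between the sexes was 3.15 (SE 0.35, adjusted p = 4.74e-05), and within batches it was 3.52 in batch 1 and 2.42 in batch 2. Alone it was 1.13 (SE 0.34, adjusted p = 0.0773), which passed in DESeq2 (adjusted p = 0.0415) and limma-voom (adjusted p = 0.00576). Isolation gave -0.68 (SE 0.32, adjusted p = 0.344) in females and 1.33 (SE 0.36, adjusted p = 0.565) in males, of opposite sign, and the test of their difference gave -2.01 (SE 0.48, adjusted p = 0.0939). DESeq2 put that difference past the threshold, with adjusted p = 0.0141. Tep3 and Tep4 passed in no comparison in edgeR. For isolation averaged over the sexes DESeq2 called Tep4, with 0.48 (adjusted p = 0.0333), and so did edgeR with the replicate number as a block, with 0.50 (adjusted p = 0.0478). Tep3 had 0.39 (SE 0.14, adjusted p = 0.18) for isolation in females and 0.17 (SE 0.14, adjusted p = 1) in males, and Tep4 had 0.54 (SE 0.20, adjusted p = 0.201) and 0.42 (SE 0.20, adjusted p = 1).

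Of the 3 genes of the Imd pathway, Rel and pirk were higher in group-housed females than in group-housed males and imd did not pass. Rel encodes Relish, the NF-kappaB factor of the pathway. It was at 275, 232 and 207 CPM in group-housed females, 239, 186 and 230.4 in isolated females, 161, 176 and 118 in group-housed males and 155, 191 and 183 in isolated males. pirk, a target of the pathway that inhibits it in turn, was at 26.98, 17.9 and 16.3 CPM in group-housed females, 21.2, 17.6 and 17.4 in isolated females, 11.8, 9.98 and 10.8 in group-housed males and 15.4, 18.2 and 13.6 in isolated males. In groups all female libraries exceeded all male ones for both genes, by 0.65 (SE 0.17, adjusted p = 0.0473) for Rel and 0.90 (SE 0.21, adjusted p = 0.0297) for pirk. Neither call held throughout. Rel lost its call in 8 and pirk in 4 of 12 fits that left out 1 library each. Without group-housed female replicate 0 the adjusted p was 0.237 for Rel and 0.256 for pirk. Alone the differences were 0.30 (SE 0.17, adjusted p = 0.397) and 0.23 (SE 0.22, adjusted p = 0.652). No Imd pathway gene passed for isolation. The smallest p belonged to imd in females, with -0.29 (SE 0.30, adjusted p = 0.733), and to pirk in males, with 0.55 (SE 0.21, adjusted p = 1). The adaptor gene imd was at 10.2, 12.5 and 10.3 CPM in group-housed females, 9.18, 8.56 and 9.04 in isolated females, 8.71, 8.32 and 7.99 in group-housed males and 7.57, 13.9 and 7.09 in isolated males.

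Toll pathway genes followed. Under group housing 0 of 7 differed between the sexes, with a median of 0.09, and 0 of 7 passed for isolation in males, with a median of 0.04. In females all 7 isolation values were positive, with a median of 0.22. With library totals alone in place of TMM scaling 4 of the 7 were positive, but the median of all features also fell. Of the 7, 1 passed for isolation in females.

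That gene was spz, which encodes the Toll ligand Spätzle, on chromosome arm 3R from 27064990 to 27070070 in BDGP6.54. It was at 56.7, 51.3 and 62.6 CPM in group-housed females, 79.7, 77.9 and 89.7 in isolated females, 48.4, 54.2 and 57.9 in group-housed males and 53.5, 50.6 and 60.4 in isolated males. Each isolated female library stood above every library of the other 3 groups, and the male groups overlapped. The isolation value was 0.54 (SE 0.14, adjusted p = 0.0373) in females and 0.03 (SE 0.13, adjusted p = 1) in males, and isolated females exceeded isolated males by 0.59 (SE 0.14, adjusted p = 0.0183). The test of the difference in response gave 0.50 (SE 0.19, adjusted p = 0.526). The call in females was lost in 8 of 12 fits that left out 1 library each (highest adjusted p = 0.179 without isolated female replicate 2).

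The other components of the pathway did not pass in edgeR. The gene nec, encoding the serpin Necrotic that restrains the protease cascade, had 0.47 (SE 0.14, adjusted p = 0.0831) for isolation in females, and Tl, encoding the receptor Toll, had 0.35 (SE 0.13, adjusted p = 0.179). Each was higher in every isolated female library than in every group-housed one. DESeq2 called both, with adjusted p = 0.0258 for nec and 0.0349 for Tl, and edgeR with the replicate number as a block called nec (adjusted p = 0.0432). Between isolated females and males nec had 0.50 (SE 0.14, adjusted p = 0.0507), called by DESeq2 (adjusted p = 0.0108), limma-voom (adjusted p = 0.0391) and the fit with the block (adjusted p = 0.0246), and DESeq2 called Tl (adjusted p = 0.0316). The protease gene SPE, whose product cleaves Spätzle, had 0.22 (SE 0.15, adjusted p = 0.56). The inhibitor gene cact had 0.15 (SE 0.12, adjusted p = 0.643) in females and, with the smallest p of the class in males, 0.08 (SE 0.12, adjusted p = 1), and it was at 127, 124 and 143 CPM in group-housed females, 146, 142 and 148 in isolated females, 117, 125 and 123 in group-housed males and 132, 139.7 and 114 in isolated males. The transcription factor genes Dif and dl had values between -0.10 and 0.06 in both sexes.

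**Figure D4:**
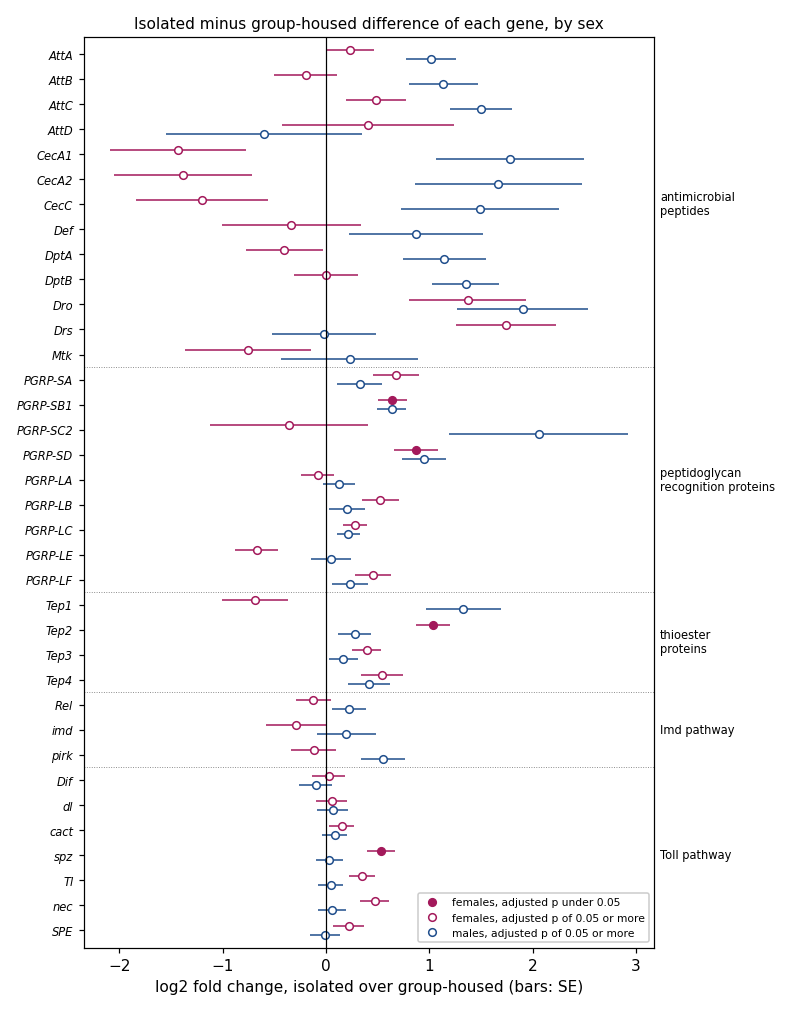
Log2 fold change of isolated over group-housed flies with its SE for each of the 36 genes, in females (pink) and males (blue), filled where the adjusted p was under 0.05. The 4 filled points are Tep2, PGRP-SD, PGRP-SB1 and spz in females, and the male points of the cecropins lie to the right of 0 with the female points to the left.

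Expressed per length of exon, so that genes can be set side by side, AttC and PGRP-SB1 were the most abundant members in group-housed females, at 293 ± 43.3 and 242 ± 35.96 CPM per kilobase (SD, n = 3). DptB followed at 187 ± 24.9 and DptA at 149 ± 39.1, and neighbours in this order differed by less than the sum of their SDs. In group-housed males the order was led by SPE at 116 ± 15.4, PGRP-SB1 at 111 ± 29.1, nec at 95.5 ± 12.4 and Tep2 at 95.2 ± 20.3 CPM per kilobase, while AttC stood at 54.7 ± 27.4. PGRP-SC2 was the lowest member in group-housed females, at 3.55 ± 2.35.

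Over 78 pairs of peptide genes the median Pearson r of log2 CPM was 0.768 across 12 libraries, and it was 0.424 once each library was taken as its deviation from its group mean. Libraries share depth and composition, so these are descriptions. Some of these genes lie side by side: Dro, AttA and AttB adjoin on chromosome arm 2R, DptA and DptB adjoin on the same arm, and CecA1, CecA2 and CecC lie close together on 3R. CecA1, CecA2 and CecC, AttA and AttB, and DptA and DptB are also similar copies, so that the count and the level per kilobase of any of them are uncertain. The count table had a line for alignments that are not unique, and reads matching several copies may be in it. Besides PGRP-SD and PGRP-LF, exon overlap on the other strand affects AttC, DptB, Tep2, Tep3, imd, Dif, cact and spz, and SPE overlaps CG18754 on the same strand. The partners of AttC, DptB, Tep2 and spz reached at most 3.06, 0.103, 5.27 and 0 CPM, far under those genes, whereas GstE9, the partner of imd, was at 40.1 to 76.5 CPM.

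Outside the immune lists, the 3 features whose log2 CPM followed the mean of the 13 peptides most closely over the 12 libraries were Ilp3 (r = 0.926), CG30151 (r = 0.925) and Mvl (r = 0.92). They were picked as the highest r of all tested features outside the lists. Group means were not removed, so the difference between the sexes enters each r. Ilp3, which encodes an insulin-like peptide of brain neurosecretory cells, was at 20.6 to 22.5 CPM in group-housed females, 17.1 to 19.8 in isolated females, 4.18 to 8.32 in group-housed males and 5.51 to 12.1 in isolated males. Mvl, which encodes a metal ion transporter, was at 183 to 203, 191 to 196, 138 to 165 and 164 to 182 CPM in the same order.

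Further genes of these pathways, listed apart from the 36, showed the same direction between the sexes in some cases. Of 8 other antimicrobial peptide and immune-induced genes tested, 3 were higher in group-housed females and 0 lower: CecB, another cecropin gene (adjusted p = 0.00263), and edin (3.39 (SE 0.80, adjusted p = 0.0296)) and IBIN (3.60 (SE 0.57, adjusted p = 0.00137)), both of which are induced on infection. CecB had 127, 20 and 14 reads in group-housed females and 0, 1 and 1 in group-housed males, too few in males for a fold change. IBIN was at 7.1, 7.23 and 9.09 CPM in group-housed females and 0.975, 0.333 and 0.507 CPM in group-housed males. Of 4 other recognition genes and 17 other Imd pathway genes tested, 0 passed in any of the comparisons. Of 22 other Toll pathway genes, Hayan, a protease of the cascade, was higher in females in groups (0.84 (SE 0.19, adjusted p = 0.0194)) and alone (0.93 (SE 0.19, adjusted p = 0.0076)), and under isolation averaged over the sexes (0.62 (SE 0.13, adjusted p = 0.0171)), and psh, a protease that senses microbial proteases, was higher in females alone (0.68 (SE 0.16, adjusted p = 0.0248)). The stress-induced Turandot genes went the other way, with 2 of 5 tested lower in group-housed females than in males, TotC by -1.56 (SE 0.29, adjusted p = 0.0091) and TotX by -2.13 (SE 0.50, adjusted p = 0.0376), and TotC also lower alone by -1.51 (SE 0.30, adjusted p = 0.0113). Of 4 JAK-STAT genes tested 0 passed in any comparison, and of 5 melanisation genes Tig was higher in isolated females than in isolated males (1.45 (SE 0.26, adjusted p = 0.00542)). For isolation in females or in males, 0 genes of these lists passed.

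Some markers of other tissues in the head sample differed by sex and, in females, by housing. Among them were some of fat body and hemocytes, which make antimicrobial peptides. Isolation raised 7 of 14 fat body markers tested in females, namely Fbp1, Lsp1alpha, Lsp2, Yp2, Yp3, Apoltp and Mtp, and lowered 0. All 17 matched markers summed to 25930 to 40370 CPM in group-housed females, 59390 to 83420 in isolated females, 14270 to 18150 in group-housed males and 15120 to 17750 in isolated males, and none was at 0 in all libraries. Between group-housed females and males 4 were higher, Fbp1 and the yolk protein genes Yp1, Yp2 and Yp3, and 1 lower, Lsp1alpha at -2.15 (SE 0.16, adjusted p = 4.5e-07). Between isolated females and males 12 were higher. The sums include the yolk protein genes, which themselves differed by sex, so they do not measure the amount of fat body in females against males. Of 13 hemocyte markers tested, eater was raised by isolation in females, at 0.77 (SE 0.19, adjusted p = 0.0316), and Hml, eater, NimC1 and Col4a1 were higher in isolated females than in isolated males. In groups 0 of the 13 hemocyte markers passed between the sexes. The 14 matched summed to 1812 to 3221, 2652 to 3575, 1468 to 2813 and 1743 to 2396 CPM in the same order of groups, and gcm2 reached at most 0.756 CPM. The part of either tissue in the sex differences and in the calls of isolated females was not tested. In males the summed fat body level of the 2 housings overlapped, and 0 of 14 fat body and 0 of 13 hemocyte markers passed for isolation. Among the fat body markers 2 of 14 had an unadjusted p under 0.05 in males, Lsp1alpha with 0.71 (SE 0.15, adjusted p = 0.185) and Lsp2 with 0.91 (SE 0.27, adjusted p = 0.799). Both of these larval serum protein genes were higher in each isolated male library than in each group-housed one, Lsp1alpha at 416 to 700.5 against 266 to 377 CPM and Lsp2 at 1067 to 1290 against 490 to 881 CPM. The part of the fat body in the male peptide values was not tested. Of 3 gut markers tested, LManII was raised by isolation in females, at 0.92 (SE 0.16, adjusted p = 0.00241), and the 8 matched summed to 492 to 632, 1027 to 1114, 666 to 1049 and 790.1 to 892 CPM in the same order of groups. Of 7 muscle markers, up was higher in females in groups (0.72 (SE 0.16, adjusted p = 0.02)) and Mlc2 alone (0.83 (SE 0.17, adjusted p = 0.0103)). The part of these tissues was not tested either. Markers of the male reproductive tract took 186, 8.49 and 20.3 CPM in group-housed males and at most 2.42 CPM in every other library.

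The counts of calls depended on single libraries and on the scaling. With library totals alone in place of TMM scaling, 1 of the 4, Tep2, passed for isolation in females and 4 members passed between isolated females and males. Of the 4 members raised by isolation in females, 1 passed when replicate 0 of either female group was left out, and 2 when group-housed replicate 1, isolated replicate 1 or isolated replicate 2 was. Of the 10 that differed between isolated females and males, the count fell to 3 on leaving out isolated male replicate 0. It was 5 when the library left out was isolated female replicate 0 or isolated male replicate 2, and 6 when it was isolated female replicate 1 or 2. Over those 12 fits PGRP-LF lost its call in 9, PGRP-SA in 8, AttB in 7, spz in 4, PGRP-LB and Drs in 3 each, AttC in 2, and AttA, DptB and PGRP-SB1 in 0. Their highest adjusted p was 0.234 for PGRP-LF, 0.166 for PGRP-SA, 0.184 for AttB, 0.0926 for spz, 0.113 for PGRP-LB, 0.0763 for Drs and 0.0548 for AttC. The 12 of the group-housed comparison stayed between 8 and 13, the lowest on leaving out group-housed female replicate 0, and AttA, AttB, AttC, CecA2, DptA, DptB, PGRP-SB1 and Tep1 passed in all 12 fits.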

How the data were processed

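RNA sequencing counts of 12 libraries were used. The authors deposited raw read counts as whole numbers, 1 per feature and library. Tools named in the submitters' processing notes, without roles, are edgeR 4.4.1, R 4.4.0, HTSeq 2.0.5, STAR 2.7.10b and Picard 2.27.5. Not given in the sources used here are the genome build, annotation and strand setting. Lines naming no gene, among them 1 for alignments that are not unique, held 10.2% to 13.2% of each column and were left out. Another number per gene, tied to no sample, was not used. The column of isolated male replicate 1 is marked as merged and was used as 1 replicate.

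Features were kept by filterByExpr (minimum count 10, minimum total 15) and scaled by TMM. In edgeR 4.0.16 (R 4.3.3, limma 3.58.1) 1 robust quasi-likelihood model with 4 group means and batch was fitted to all 12 libraries, leaving 7 residual degrees of freedom. The 6 contrasts were tested with glmQLFTest, with Benjamini-Hochberg adjustment over 10238 features. An SE is the log2 fold change divided by the square root of F. Within-batch values are differences of log2(CPM + 0.5). Per-kilobase levels use the union of exons in BDGP6.54, matched by gene identifier.

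Replicates of a group differed by more than sampling noise, with a chi-square of 4.48 to 65.7 per degree of freedom. The lowest value was that of isolated female replicates 1 and 2, the shallowest libraries, and every other pair was at 14.7 or more. Separate cultures are not stated in the labels, and p-values therefore reflect the spread among these libraries, which may be technical. The members and the gene lists were chosen with earlier results of these data known; 208 of 214 listed symbols were matched. Values in every library are given for members that passed in any contrast and for the smallest p of each class in each isolation contrast; those of Dro were added after they were seen. Genes of the other immune lists are named where they passed. Tissue markers that passed are named in part, and otherwise counted or not given. The 3 features most correlated with the mean peptide level are also named. The scripts were tested on simulated counts. Alternatives were other scalings, filters, tools (DESeq2 1.42.0, limma-voom), batch terms and subsets of libraries, and each library left out in turn.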

Additional observations from a re-analysis of the deposited data

How the results depend on the processing

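Over the 36 members and 6 comparisons, 0 of the 30 values that passed changed sign under any alternative fit, and 59 of all 216 did. Of the 104 with an unadjusted p under 0.05 this was 1, PGRP-SD for sex under isolation, which went from 0.46 to -0.00 in batch 2 alone. Counts of members passing are given here against the value in the report. For isolation in females (4) the count was 1 with library totals alone, 7 with DESeq2, 1 without a batch term, 0 in batch 2 alone and 1 without isolated female replicates 1 and 2; leaving out 1 library at a time it was 1 to 6. For isolation in males (0) it was 9 with no low-count filter, 5 with DESeq2, 2 with the male libraries alone and 1 without isolated female replicates 1 and 2; leaving out 1 library it was 0 to 1. For the difference between the sexes in the response (0) it was 8 with no low-count filter and 2 with DESeq2, and 0 to 1 with 1 library left out. For isolation averaged over the sexes (4) it was 9 with no low-count filter, 7 with DESeq2 and 1 without isolated female replicates 1 and 2, and 3 to 6 with 1 library left out. For sex under group housing (12) it was 7 in batch 2 alone and up to 18 in other alternatives. With 1 library left out it was 8 to 13. For sex under isolation (10) it was 4 with library totals alone, 6 without a batch term and 2 in batch 2 alone. It reached up to 15 in other alternatives and was 3 to 12 with 1 library left out. Fewer libraries enter batch 2 alone and the subsets; otherwise the cause was not tested. Library totals alone moved the median of all features to -0.23 for isolation in females and for sex under isolation, and to -0.26 for the difference of responses, so changes there are relative to that shift. Whether replicate numbers pair the libraries beyond the batch was not settled. Deviations were taken from group means without removing the batch, and replicate 0 is batch 1. Those of same-numbered libraries correlated by 0.229 to 0.505 for replicate 0, -0.184 to 0.175 for replicate 1 and -0.0341 to 0.396 for replicate 2. Of 12 libraries, 9 correlated best with their own number. With the replicate block the counts were 5, 0, 0, 5, 12 and 10 in the order above; for sex under isolation it lost AttB and gained nec, for isolation in females it gained nec and for the average Tep4. Depth limits the cecropins, AttD, PGRP-SC2 and Def, which rested on few reads in some libraries.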
